A study of Mus musculus with 22 samples.

Results

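Back skin of K14-DN-Clim transgenic mice (DN-CLIM) on postnatal day 23 (P23) was compared with DN-CLIM back skin on postnatal day 14 (P14). The arrays were chosen by their titles, which gave 3 DN-CLIM arrays at P23 and 3 at P14, 6 of the 22 in the series. Of the 12488 probe sets in the table, the 12422 that were not array controls were taken in, and 6211 of these were bright enough to be tested. The series holds DN-CLIM and wild-type (WT) littermate skin at P6, when the first follicles are still forming, at P14, in late hair growth, and at P23, in the first resting phase. All animals were of the CB6F1 strain. CLIM proteins (Ldb1 and Ldb2) are nuclear cofactors that join LIM-domain factors to other regulators. The transgene makes a dominant-negative version under the keratin 14 promoter, which is active in basal keratinocytes of the epidermis and follicle. Dermal, muscle, fat and immune cells in the same skin are not targets of that promoter, and the transgenic cells keep their own Ldb1 and Ldb2 genes. WT skin, with 3 arrays at P23 and 3 at P14, served to show where the step differed between genotypes. The 5 DN-CLIM arrays at P6 are given as levels only. Whether each array stands for 1 mouse, and from which transgenic line, cannot be read from the labels, so the p-values measure the spread between arrays.

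In the mouse, the first hair cycle runs in near synchrony over the back. During anagen, the growth phase, matrix cells in the hair bulb divide and differentiate into the hair shaft and the inner root sheath that guides it, while melanocytes of the bulb load the shaft with pigment. In catagen the lower follicle regresses, and in telogen a short follicle with its bulge of stem cells rests above a compacted dermal papilla.

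The measurement was 1 MAS5 signal per probe set and array, scaled by the authors to a common trimmed mean. Array medians were close (log2 7.78 to 7.80 on the P23 arrays and 7.72 on the P14 arrays). The share of all signal in the top 20 probe sets was 4.38 to 4.57% at P23 and 8.59 to 9.95% at P14. Between replicate arrays, log2 values differed with an SD of 0.27 at P23 and 0.39 at P14. Xist was high on 1 of the 3 P23 and 2 of the 3 P14 arrays, so the sexes were mixed in both groups. Of the markers that define skin, Krt1, Krt10, Col1a1 and Col3a1 were bright in both groups, whereas the probe sets of Krt14, Krt5 and Krt15 lay at percentiles 19, 23.7 and 1.39 of mean signal and were not tested. Lhx2 and Hoxc13 were not analysed here.

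The step touched a large share of the transcripts measured. Of the 6211 tested probe sets, 3372 (54.3%) passed an adjusted p of 0.05 in limma, 1683 (27.1%) higher at P23 and 1689 (27.2%) lower. Of those that passed, 671 were at least 2-fold higher (10.8% of the tested) and 517 at least 2-fold lower (8.32% of the tested). The P23 and P14 arrays did not overlap for 4116 probe sets (66.3%), so a gap between the groups is by itself common here. With 1 probe set per gene, 1359 of 4900 genes were higher (27.7%) and 1329 lower (27.1%), and the median log2 change over all of them was 0.00. The counts of gene lists below are to be read against these shares. A log2 change is always P23 minus P14.

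**Figure D1:**
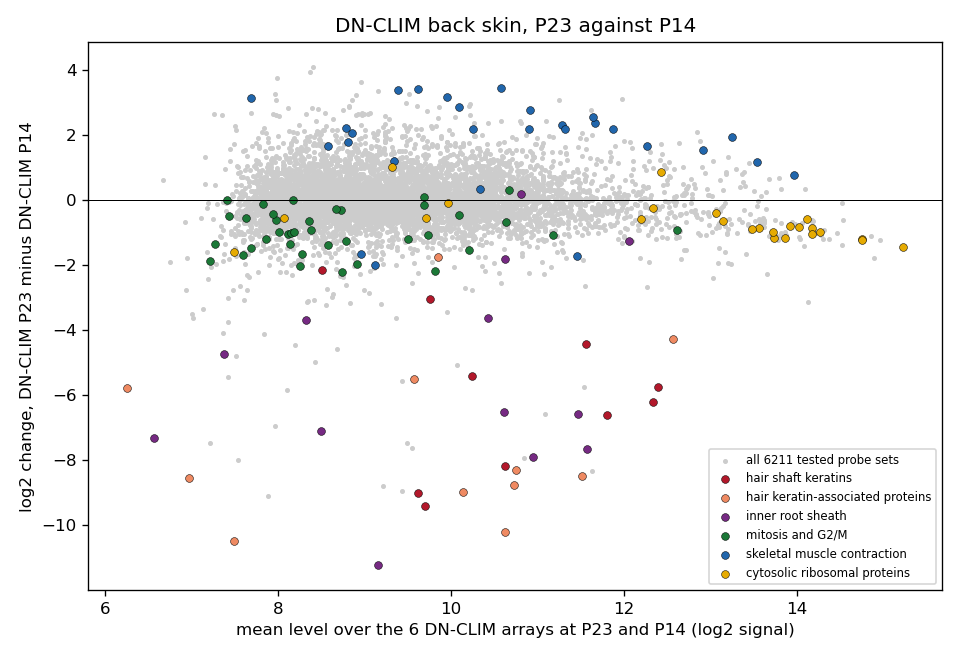
Each point is a probe set tested in DN-CLIM skin, with its mean level over the 6 DN-CLIM arrays (log2 signal) on the x axis and its log2 change, P23 minus P14, on the y axis. Hair shaft keratins, hair keratin-associated proteins and inner root sheath genes lie far below 0, most skeletal muscle genes lie above it, and the bright cytosolic ribosomal protein genes lie below it.

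The hair shaft programme accounted for the steepest falls. All 10 hair shaft keratins tested fell (median log2 change -5.98), and so did all 11 keratin-associated proteins (median -8.50), the cysteine-rich and glycine-tyrosine-rich matrix proteins in which shaft keratins are embedded. Of 13 genes on the inner root sheath list 12 fell (median -6.51), among them S100a3, which is a gene of the hair cuticle. Gata3, a transcription factor of the sheath, did not pass (0.18, adjusted p = 0.25). The mean log2 level of the hair shaft keratins was 12.57 to 13.03 on the DN-CLIM P6 arrays, 13.57 to 13.82 on the P14 arrays and 7.5 to 7.73 on the P23 arrays. All genes of these 3 lists that the annotation paired with a probe set of their own were bright enough to test (10, 11 and 13 genes). In bulk skin, fewer cells of a type and less RNA per cell cannot be told apart, here and in all groups below.

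Krt25, an inner root sheath keratin, had signals of 9.83, 14.0 and 11.5 at P23, against 32354, 25184 and 26621 at P14. Krt34, a keratin of the shaft cortex, had 36.4, 14.7 and 60.6 at P23, against 21744, 21909 and 21052 at P14. Krtap3-1, a keratin-associated protein, had 113, 177 and 185 at P23, against 70553, 51870.0 and 47408 at P14. All 3 genes were very bright on every P14 array and under the array's median signal on every P23 array. Their log2 changes were -11.23 (SE 0.26, adjusted p = 1.4e-19) for Krt25, -9.40 (SE 0.40, adjusted p = 8.6e-15) for Krt34 and -8.50 (SE 0.19, adjusted p = 3.6e-20) for Krtap3-1. Krtap19-5, with 4.57, 4.39 and 5.43 at P23 and 7764, 5864 and 7015 at P14, changed by -10.48 (SE 0.16, adjusted p = 1.1e-22). No detection calls were used, and the size of such a fall depends on the dim end: with 50 added to every signal the fall was 453-fold for Krt25, 254-fold for Krt34, 272-fold for Krtap3-1 and 126-fold for Krtap19-5, in place of 2396-fold, 677-fold, 361-fold and 1431-fold. Members of these families are close in sequence, so a probe set can read more than 1 of them.

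The promoters of these 4 genes are shown because these hair genes of different families fell together and each hold the letters TATAAA ahead of the start. The windows run from 250 bases before to 50 after the annotated start, as RefSeq gives them on GRCm38.p6, each on the minus strand and written 5′ to 3′ on that strand: Krt25 at chr11:99322902-99323201, Krt34 at chr11:100041505-100041804, Krtap3-1 at chr11:99566581-99566880 and Krtap19-5 at chr16:88896400-88896699. Capitals mark TATAAA, whose first base lies 30, 31, 37 and 63 bases before the start in that order.
Krt25: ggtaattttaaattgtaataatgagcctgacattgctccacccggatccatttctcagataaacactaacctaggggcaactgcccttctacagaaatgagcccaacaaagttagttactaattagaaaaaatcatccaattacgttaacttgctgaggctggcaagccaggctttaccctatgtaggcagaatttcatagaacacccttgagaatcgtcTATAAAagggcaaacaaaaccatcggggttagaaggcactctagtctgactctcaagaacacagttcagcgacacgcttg
Krt34: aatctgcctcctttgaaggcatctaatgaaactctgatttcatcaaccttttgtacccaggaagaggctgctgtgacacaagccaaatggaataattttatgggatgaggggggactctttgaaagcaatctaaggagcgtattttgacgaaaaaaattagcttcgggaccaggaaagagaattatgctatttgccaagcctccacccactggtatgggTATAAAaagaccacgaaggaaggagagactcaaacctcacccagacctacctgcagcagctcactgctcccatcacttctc
Krtap3-1: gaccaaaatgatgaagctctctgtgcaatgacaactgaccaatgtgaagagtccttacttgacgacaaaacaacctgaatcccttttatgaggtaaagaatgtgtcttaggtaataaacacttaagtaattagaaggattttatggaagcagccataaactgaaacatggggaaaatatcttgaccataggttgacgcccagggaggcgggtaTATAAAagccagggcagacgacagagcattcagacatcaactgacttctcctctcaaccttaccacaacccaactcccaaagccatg
Krtap19-5: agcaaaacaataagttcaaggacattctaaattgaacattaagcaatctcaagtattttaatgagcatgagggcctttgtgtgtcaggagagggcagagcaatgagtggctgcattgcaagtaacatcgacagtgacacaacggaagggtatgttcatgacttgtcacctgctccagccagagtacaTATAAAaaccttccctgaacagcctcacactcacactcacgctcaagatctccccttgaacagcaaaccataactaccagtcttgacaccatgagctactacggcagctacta

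A promoter window was available for 19 of the 25 tested hair keratin, keratin-associated and inner root sheath keratin genes. TATAAA on either strand was in 17 of the 19 windows (89.5%), against 9.87% of the 3973 tested genes with a window and 15.7% of all 27025 windows. On the gene's own strand, with its first base 20 to 40 bases before the start, it was in 9 of 19 (47.4%), against 2.47% and 2.41%. These are matches of letters, and several of the genes are neighbouring copies with shared sequence.

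Genes that build the hair shaft and sheath without being keratins also fell. S100a3 and Padi3 among them were already counted in the inner root sheath list. S100a3, a calcium-binding protein of the hair cuticle, had 300.1, 275 and 293 at P23, against 30720.1, 27193 and 25864 at P14 (-6.59). Padi3, which converts arginine to citrulline in hair proteins, had 49.0, 24.8 and 24.3 at P23, against 5492, 3307 and 4206 at P14 (-7.10, SE 0.24). Tgm3, a transglutaminase that cross-links shaft and sheath proteins, changed by -3.71 (SE 0.18, adjusted p = 1.0e-13). The groups stood clear of each other for all 3. For Padi3 the selection required it, since the 20 largest falls were taken only from genes without overlap. Crym, a thyroid hormone-binding protein, and Fbp1, an enzyme of gluconeogenesis, were on none of the hair lists and were among the 20 largest falls (-9.09 and -7.99). With 50 added the falls were 92.4-fold for Crym, 48.2-fold for Fbp1, 52.4-fold for Padi3 and 82.3-fold for S100a3.

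Of 13 tested regulators of the hair matrix 12 fell and 1 rose (median -1.34). Msx2, a homeobox factor needed for shaft differentiation, had 9.76, 10.5 and 13.7 at P23, against 2160.5, 1697 and 2106 at P14 (-7.46, SE 0.20, adjusted p = 1.2e-18). Foxn1, the factor missing in nude mice, had 38.9, 19.6 and 83 at P23, against 641, 693 and 703 at P14 (-4.09, SE 0.41, adjusted p = 2.8e-08). The homeobox genes Dlx3 (-3.63) and Dlx2 (-3.50) and Cux1 (-1.81), a factor of the sheath lineage, fell as well. Every P23 array was below every P14 array for these 5 genes. Msx2 was also among the 20 largest falls, which were taken only from genes without overlap. With 50 added the falls were 33.1-fold for Msx2 and 7.77-fold for Foxn1. Lef1, the partner of beta-catenin in the hair matrix, fell to 897, 850.0 and 657 at P23, against 1957, 2055 and 2171 at P14 (-1.37, SE 0.13, adjusted p = 1.6e-08), and by more at a dimmer probe set (-3.63). Nfix, a nuclear factor I gene, was the member that rose (1.27, adjusted p = 2.1e-07).

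**Figure D2:**
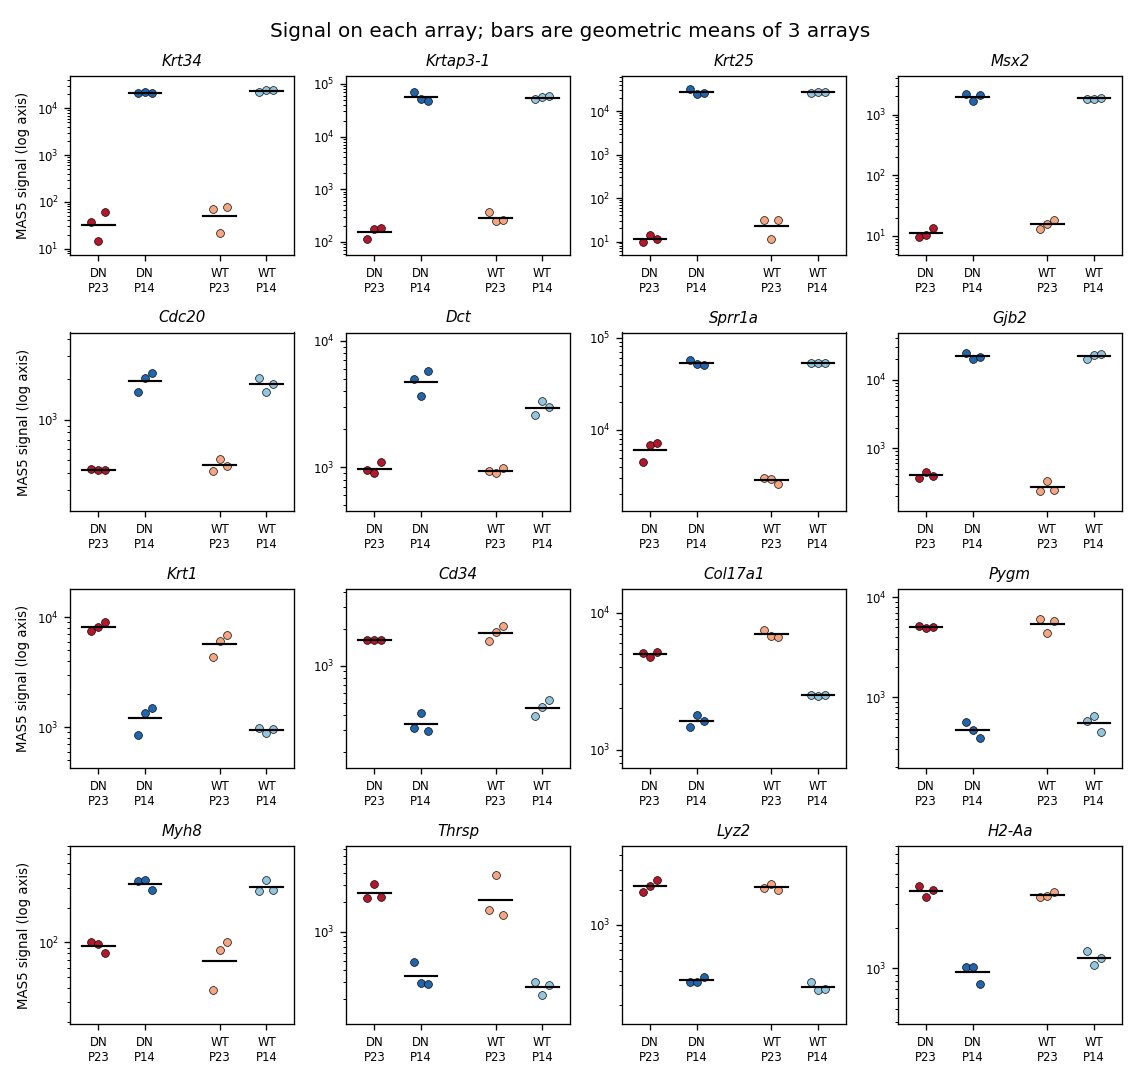
MAS5 signal (log axis) of 16 genes on each array, with DN-CLIM P23, DN-CLIM P14, WT P23 and WT P14 from left to right. Points are arrays and bars are geometric means of 3 arrays. For the DN-CLIM arrays the P23 and P14 points are apart in all 16 panels, lower at P23 in the first 8 and in Myh8 and higher in the other 7. Krt34, Krtap3-1, Krt25, Msx2, Pygm and Thrsp were among the 20 largest rises or falls, taken only from genes without overlap.

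Cell division genes fell more moderately. Of 38 tested genes of mitosis and the G2/M phase 28 fell, 10 did not pass and none rose (median -1.01). Of 32 genes of DNA replication 21 fell and 1, Rpa1, rose (0.48, adjusted p = 0.021), with a median of -0.66. Rpa1, a single-strand DNA-binding protein, did not pass without P14 replicate 1 (0.32) or P23 replicate 1 (0.37). Cdc20, an activator of the anaphase-promoting complex, had 425, 418 and 421 at P23, against 1596, 2033 and 2234 at P14. Cdk1, the kinase that starts mitosis, had 229.7, 259 and 236 at P23, against 840.5, 888 and 1175 at P14. Mki67, which encodes the proliferation antigen Ki-67, had 261, 171 and 177 at P23, against 1160.2, 655 and 1019.5 at P14. For all 3 the P23 arrays sat together below the P14 arrays, with log2 changes of -2.20 (SE 0.15, adjusted p = 5.6e-11) for Cdc20, -1.99 (SE 0.13, adjusted p = 1.8e-11) for Cdk1 and -2.21 (SE 0.22, adjusted p = 2.6e-08) for Mki67. Among S phase genes, Tk1 (thymidine kinase, -1.29), Mcm7 (-1.33) and Mcm5 (-1.20), subunits of the replicative helicase, and Ccne1 (cyclin E, -1.28) fell. The mean log2 level of the mitosis list was 9.60 to 9.71 on the DN-CLIM P6 arrays, 9.18 to 9.30 on the P14 arrays and 8.15 to 8.37 on the P23 arrays.

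The promoters of Cdc20 and Cdk1 are shown because many genes of the mitosis list share 2 short motifs, CCAAT and TTTGAA, known as parts of promoters active in G2 and mitosis. Both windows are on the minus strand of GRCm38.p6 (RefSeq), Cdc20 at chr4:118437294-118437593 and Cdk1 at chr10:69352863-69353162. Capitals mark CCAAT, its reverse complement ATTGG, and TTTGAA.
Cdc20: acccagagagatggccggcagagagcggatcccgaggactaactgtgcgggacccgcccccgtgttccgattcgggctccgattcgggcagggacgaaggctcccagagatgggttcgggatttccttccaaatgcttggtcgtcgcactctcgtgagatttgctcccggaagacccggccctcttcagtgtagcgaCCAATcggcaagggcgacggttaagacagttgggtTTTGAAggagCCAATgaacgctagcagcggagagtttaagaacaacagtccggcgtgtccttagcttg
Cdk1: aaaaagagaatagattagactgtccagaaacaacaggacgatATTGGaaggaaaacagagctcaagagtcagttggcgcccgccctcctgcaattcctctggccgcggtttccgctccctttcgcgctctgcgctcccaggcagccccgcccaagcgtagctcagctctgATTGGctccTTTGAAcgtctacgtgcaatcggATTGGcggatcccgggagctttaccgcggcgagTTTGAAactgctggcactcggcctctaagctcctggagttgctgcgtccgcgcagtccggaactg

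CCAAT and TTTGAA, each on either strand, occurred together in 19 of the 29 mitosis windows (65.5%). The share was 13.8% in 29 windows of replication genes, 7.32% in the 3973 tested genes with a window and 8.97% in all 27025 windows. TTTGAA, with or without CCAAT, was in 72.4% of the mitosis windows, against 14.5% of the tested genes. CCAAT, with or without TTTGAA, was in 79.3%, against 42.7%.

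Of 9 tested genes on the melanocyte and pigment list 5 fell, 2 rose and 2 did not pass (median -1.0). The 2 that rose were Kitl and Pard3. Those that fell were Oca2, a melanosome transporter (-3.76), Pmel, the melanosome fibril protein (-2.79), Tyrp1 and Dct, enzymes of eumelanin synthesis (-2.54 and -2.28), and Mc1r, the melanocortin receptor (-1.0). Dct had 946, 898 and 1094 at P23, against 4991, 3699 and 5826 at P14 (SE 0.23, adjusted p = 4.0e-08), with all P23 arrays lower. Kitl, the ligand for the melanocyte receptor Kit, rose, with 624, 655 and 665 at P23, against 326, 349 and 467 at P14 (0.78, adjusted p = 0.00050). Pard3, a general polarity protein that was also on the list, rose by 0.66 (adjusted p = 0.012) and did not pass without P23 replicate 1 (0.57). Kit itself changed by -0.02 and Sox10, a lineage factor, by 0.29, and neither passed. Tyr was dim and was not tested.

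In the hedgehog pathway, 4 of 6 tested genes fell, 1 rose and 1 did not pass (median -0.92). Shh, the ligand secreted by the matrix, had 142, 104 and 157 at P23, against 353, 373 and 324 at P14 (-1.40, SE 0.32, adjusted p = 0.00088). Gli1, a transcription factor and target of the pathway, had 108, 102 and 91.3 at P23, against 312, 285 and 414 at P14 (-1.73, SE 0.21, adjusted p = 5.5e-07). Ptch1, the receptor, fell less (-0.45, adjusted p = 0.0097) and did not pass without P14 replicate 3 (-0.34, adjusted p = 0.066). Both Shh and Gli1 were lower on every P23 array. Mycn, a proto-oncogene downstream of the pathway, fell by 3.37. Gas1, a co-receptor, rose by 1.12, and Smo, the signal transducer, did not pass (-0.18, adjusted p = 0.30).

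Of 21 Wnt pathway genes tested 13 fell and 2 rose (median -0.53), and 19 of the 40 on the array were too dim to test. Wnt5a, a ligand of the dermal papilla and matrix, had 42.1, 123 and 75.1 at P23, against 352, 245 and 340.1 at P14 (-2.08, SE 0.37, adjusted p = 6.3e-05). Sfrp2, a secreted Wnt antagonist, went the other way, with 1059, 972 and 865 at P23, against 254, 275 and 243 at P14 (1.90, SE 0.24, adjusted p = 6.5e-07). Sfrp1, another secreted antagonist, fell (-1.04, adjusted p = 0.00025), and Tcf7l1, a repressor of the pathway kept in the bulge, rose by 0.48 (adjusted p = 0.021) but did not pass with median centring (0.42) or without P14 replicate 2 (0.36) or P23 replicate 2 (0.44). Another Tcf7l1 probe set gave 0.01 (adjusted p = 0.96). The family of secreted antagonists was thus not of 1 direction.

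Of 22 BMP, activin and TGF-beta genes 10 fell and 3 rose (median -0.19), and without P14 replicate 1 the number that fell was 6. Smad6, a feedback inhibitor of BMP signalling, fell to 247, 249.96 and 185 at P23, against 1125, 1053 and 1100.2 at P14 (-2.28, SE 0.20, adjusted p = 2.8e-09). The ligands Bmp7 (-1.44) and Bmp2 (-1.01) fell, while Smad4, the common mediator (1.15), Ltbp2, a latent TGF-beta-binding protein (1.44), and Fstl1, a follistatin-like protein (0.67), rose. Fstl1 did not pass without P14 replicate 2 (0.54) or P23 replicate 3 (0.61). The ligand Bmp4 fell at its brightest probe set (-0.37, adjusted p = 0.034), did not pass there without P14 replicate 1 or 3 or P23 replicate 2 or 3 (-0.40 to -0.23), and rose at another (1.16). Fst, follistatin itself, had 312, 369 and 321 at P23, against 386, 372 and 327 at P14 (-0.12, adjusted p = 0.61), and its groups overlapped. Of 10 genes of FGF, EGF, HGF and other hair cycle signals 3 rose and 5 fell (median -0.38), and 3 fell without P14 replicate 2 or 3 or P23 replicate 2. Fgfr1, an FGF receptor (1.19), and Pth1r, the parathyroid hormone receptor (1.90), rose, and Egfr, the EGF receptor, fell (-0.95, adjusted p = 0.00047). In the Notch pathway 4 of 14 rose and 1 fell (median 0.36), with 7 higher under array weights or with the 6 arrays alone. The receptor Notch2 rose (1.0). Notch1 fell at its brightest probe set (-0.99), while a dimmer one did not pass (-0.10, adjusted p = 0.81).

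Of 19 genes of the bulge and resting follicle 11 rose and 6 fell (median 0.48), with 10 higher under quantile normalization and 8 under median centring. Cd34, a surface marker of bulge stem cells that endothelial cells also carry, had 1612, 1621 and 1607 at P23, against 316, 413 and 297 at P14 (2.25, SE 0.23, adjusted p = 2.7e-08, and 1.37 at a second probe set). Nfatc1, a factor that keeps bulge cells quiescent, had 631, 597 and 648 at P23, against 162, 208 and 196 at P14 (1.73, SE 0.18, adjusted p = 3.6e-08). The 3 P23 arrays were nearly equal for both genes, and all were above the P14 arrays. Of 16 endothelial genes tested, 11 rose too and 1 fell (median 0.60), and the list's mean log2 level was 8.95 to 8.99 on the P23 arrays, against 8.29 to 8.36 on the P14 arrays. Without P23 replicate 2 or 3, or with median centring, 7 of its members rose. Its part in the Cd34 change was not tested. S100a4 (2.17), also made by fibroblasts, and Ccn2 (1.80), a matricellular protein, rose among the bulge genes. The bulge genes named here had the largest changes of the list, and the 6 members that fell changed by less.

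Basal keratinocyte genes went both ways, 8 of 18 higher and 5 lower (median 0.32). Col17a1, the hemidesmosome collagen, had 5044, 4715 and 5110.2 at P23, against 1469, 1781 and 1607 at P14 (1.62, SE 0.11, adjusted p = 3.6e-11). Other anchoring genes rose with it: Plec, plectin (1.95), Itga6, the alpha subunit of the hemidesmosome integrin (1.56), Col7a1, the anchoring fibril collagen (1.26), and Npnt, nephronectin (0.93, adjusted p = 6.3e-05). Bnc1, basonuclin, a zinc finger protein of dividing basal cells, fell to 161, 147 and 181 at P23, against 587, 584 and 603 at P14 (-1.87, SE 0.13, adjusted p = 5.9e-11). Cdh3, P-cadherin (-1.39), Lama5 (-1.23), a laminin chain, Itga3 (-0.91), an integrin chain, and Perp (-0.69), a desmosome protein, fell, although Perp was 0.16 with quantile normalization. For Col17a1 and Bnc1 the P23 and P14 arrays did not overlap.

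Among 7 tested dermal papilla genes, Igfbp3, an IGF-binding protein, had 2243, 2077 and 2449 at P23, against 300.3, 173 and 254 at P14 (3.25, SE 0.21, adjusted p = 2.5e-11). Sox18 (1.39), which blood vessels also express, and Vcan, versican (0.78), rose, Wnt5a and, at its brightest probe set, Bmp4 fell, and Hey1 (0.56, adjusted p = 0.14) and Ntn1 (0.27, adjusted p = 0.15) did not pass. The median of the list was 0.56.

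Barrier genes of the epidermis went both ways. Of 21 genes of epidermal differentiation 12 rose and 6 fell (median 0.80). Krt1, the suprabasal keratin, had 7442, 8134 and 9048 at P23, against 852, 1349 and 1503 at P14 (2.77, SE 0.18, adjusted p = 2.6e-11). Its partner Krt10 rose less, with 13532, 13646 and 16349.8 at P23, against 9540.1, 6638 and 8003 at P14 (0.86, SE 0.24, adjusted p = 0.0040). Both keratins were higher on every P23 array. Krt77 (1.80), Alox12b, a lipoxygenase of the lipid barrier (1.73), and Casp14, the caspase of cornification (1.85), rose. Tgm3, named above among the hair genes, was on this list too and had its largest change (-3.71). Ivl, involucrin, fell as well (-2.91, adjusted p = 2.3e-07). Lor, loricrin, rose slightly (0.43, adjusted p = 0.018) and did not pass without P23 replicate 3 (0.37) or P14 replicate 3 (0.36). Quantile normalization, which also changed the bright genes below, gave larger rises, 1.60 for Krt10, 2.55 for Krt77 and 1.13 for Lor.

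Of 23 genes of the keratinocyte stress response, which growing follicles express and injured epidermis switches on, 14 fell and 3 rose (median -0.80). Gjb2, connexin 26, had 374, 454 and 388 at P23, against 24445, 20363 and 21109 at P14 (-5.76, SE 0.12, adjusted p = 1.7e-20). Gjb6, connexin 30, fell by 4.79. Sprr1a, a small proline-rich envelope protein, had 4532, 6784 and 7134 at P23, against 56699, 51402 and 50186 at P14 (-3.13, and -2.35 with quantile normalization). Krt17 (-1.97), Krt16 (-1.39) and Sprr1b (-2.29) fell, and all P23 arrays were below all P14 arrays for these genes. The Sprr2 genes split: Sprr2h had 44.5, 126 and 183 at P23, against 4894, 4877 and 4519 at P14 (-5.56), while Sprr2g had 1526, 1364 and 1513 at P23, against 174, 236 and 366 at P14 (2.57, SE 0.19). Sprr2b (1.19) and Serpinb2, a protease inhibitor (0.94), rose as well. The Sprr2 genes are near copies of each other, so their probe sets may share transcripts.

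**Figure D3:**
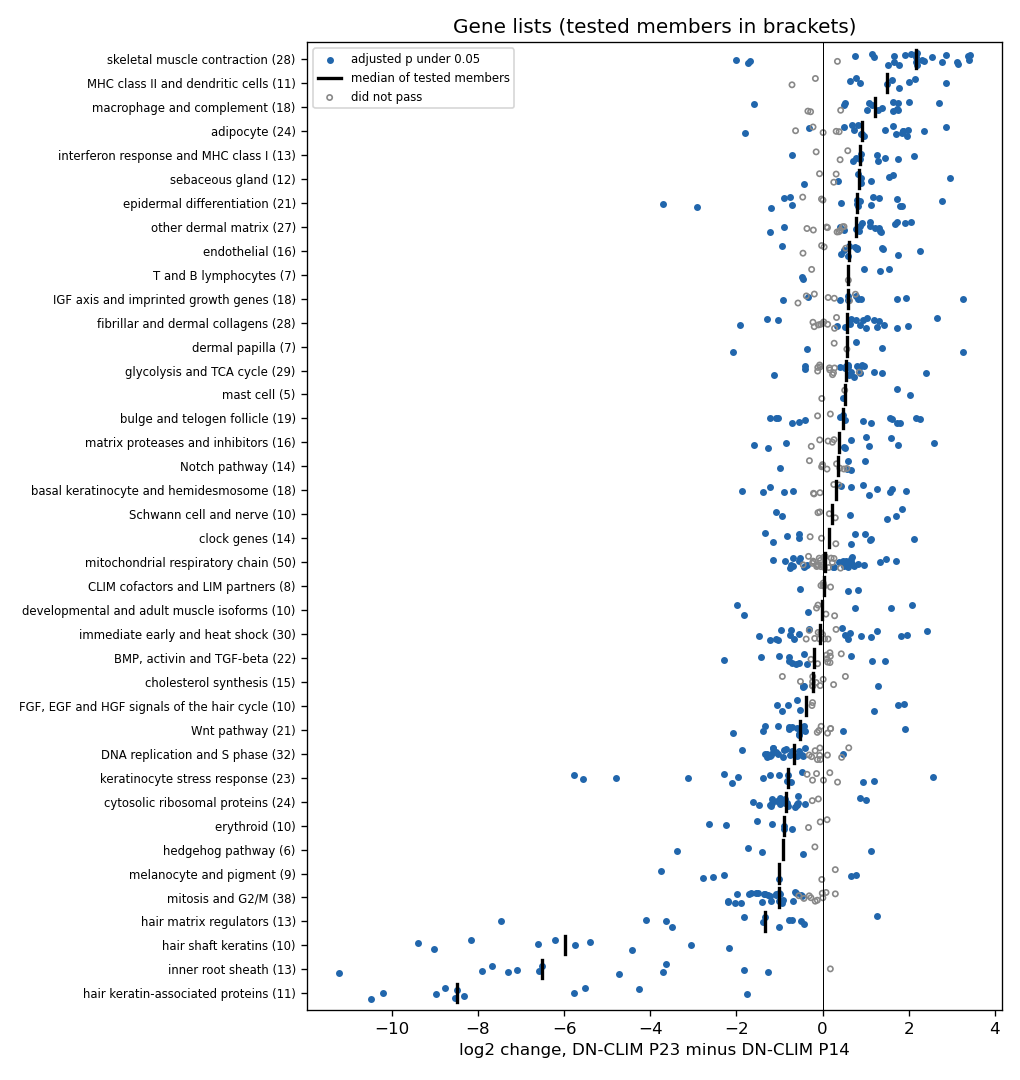
Log2 change in DN-CLIM skin, P23 minus P14, of the tested members of 40 gene lists, ordered by their medians. Filled points passed an adjusted p of 0.05 in limma, open points did not, and bars are medians, which run from -8.50 for keratin-associated proteins to 2.17 for skeletal muscle contraction.

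Skeletal muscle genes had the highest median of the 40 lists. Of 28 tested 24 rose, 3 fell and 1 did not pass (median 2.17). Pygm, muscle glycogen phosphorylase, had 5166, 4951 and 5013 at P23, against 559, 466 and 391 at P14 (3.43, SE 0.24, adjusted p = 9.2e-11). Ryr1, the calcium release channel, had 2495, 2588 and 2635 at P23, against 262, 251 and 216 at P14 (3.41, SE 0.21, adjusted p = 1.0e-11). The arrays of each group lay close together in both genes. Ckmt2, mitochondrial creatine kinase (3.37), Pgam2, a glycolytic enzyme of muscle (3.14), Csrp3, a LIM protein (3.12), and Ldb3, a Z-disc protein (2.86), rose similarly. The mean log2 level of the list was 9.46 to 9.96 on the DN-CLIM P6 arrays, 9.66 to 9.92 on the P14 arrays and 11.40 to 11.59 on the P23 arrays. How much of the underlying muscle was taken with the skin at each age is not stated in the labels.

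Of 10 tested developmental and adult muscle isoforms 3 rose, 3 fell and 4 did not pass (median -0.01). These counts are near the shares over all genes (27.7% higher and 27.1% lower). Myh4, the fast IIb myosin, had 17028, 15114 and 13584 at P23, against 6023, 3369 and 2251 at P14 (2.09, SE 0.40, adjusted p = 0.00015, and 2.86 with quantile normalization). Myh1, the fast IIx myosin, rose by 1.59. Myh8, the perinatal myosin, fell to 101, 96.1 and 80.5 at P23, against 342, 353 and 289.9 at P14 (-1.83, SE 0.23, adjusted p = 8.4e-07). So the myosin expressed around birth was lower while the adult fast myosins were higher. The 3 contraction genes that fell were the slow troponins Tnnt1 (-2.02) and Tnni1 (-1.68) and Tpm1, a tropomyosin also made outside muscle (-1.74). Chrne, the adult acetylcholine receptor subunit, fell (-1.99, adjusted p = 8.6e-05), Actc1, cardiac actin, rose (0.75), and Mylpf, a fast myosin light chain, did not pass (0.34, adjusted p = 0.11).

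Adipocyte genes and sebaceous genes mostly rose. Of 24 adipocyte genes 17 rose and 2 fell (median 0.91). Without P14 replicate 2 or P23 replicate 1, 1 fell. Thrsp, a regulator of lipogenesis, had 2233, 3093 and 2293 at P23, against 483, 294 and 289 at P14 (2.86, SE 0.33, adjusted p = 2.8e-07). Retn, resistin (2.36), Cidec, a lipid droplet protein (1.97), Pck1, an enzyme of glyceride synthesis (1.86), and Cebpd (1.95), a transcription factor, rose. Apoe, apolipoprotein E, fell (-1.80, adjusted p = 3.7e-10, and -0.48 with quantile normalization), and Fabp4, the adipocyte fatty acid-binding protein, did not pass (-0.22, adjusted p = 0.28). Of 12 sebaceous gland genes 8 rose and 1 fell (median 0.85), led by Cyp2e1, a cytochrome P450 (2.95), and Fasn, fatty acid synthase (1.63). The member that fell was Prdm1, a transcription factor (-0.43, adjusted p = 0.034), which did not pass without P14 replicate 2 or 3 or P23 replicate 1 or 2. Of 15 cholesterol synthesis genes 1 rose, Msmo1, a sterol oxidase (1.28), and 3 fell (median -0.23), with 1 lower without P23 replicate 3 and 5 lower with quantile normalization.

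Macrophage and MHC genes mostly rose, and lymphocyte genes went both ways. Of 18 macrophage and complement genes 14 rose and 1 fell (median 1.22). Lyz2, lysozyme M, had 1918, 2183 and 2426 at P23, against 318, 321 and 352 at P14 (2.71, SE 0.22, adjusted p = 1.4e-09). C1qa, a chain of complement C1q, had 2024, 2110.1 and 2029 at P23, against 602, 607 and 644 at P14 (1.73, SE 0.13, adjusted p = 3.4e-10). Both groups were tight and far apart. Ctss, cathepsin S, rose by 2.02. Ctsb, cathepsin B, which keratinocytes also make, fell at its brightest probe set (-1.60), while its other 2 probe sets did not pass (0.09 and 0.11).

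Of 11 genes of MHC class II presentation 9 rose and 0 fell (median 1.5). H2-Aa, an alpha chain, had 4037, 3379 and 3791 at P23, against 1024, 1029.8 and 771 at P14 (2.0, SE 0.23, adjusted p = 2.4e-07). Cd74, the invariant chain, rose by 1.77 and H2-Ab1, a beta chain, by 1.62, and probe sets of MHC genes may read more than 1 family member. Of 13 interferon response and MHC class I genes 9 rose and 1 fell (median 0.86). Psmb8, an immunoproteasome subunit (2.12), and B2m, the light chain of class I (1.76, and 2.41 with quantile normalization), rose, and H2-Q10 fell (-0.71, adjusted p = 0.031), a call kept without P23 replicate 2 alone of the 6 arrays. The mast cell proteases Cpa3 (2.03), Cma1 (1.72) and Tpsb2 (0.48) rose, the last of them not without P14 replicate 2 or 3 or P23 replicate 2 or 3 (0.36 to 0.50) nor with median centring (0.42), and a second Tpsb2 probe set gave -0.39 (adjusted p = 0.12), whereas Kit and Gata2 did not pass (-0.02 and 0.51). Of 7 lymphocyte genes 3 rose, Cd52, Thy1 and Ighm (1.55, 1.33 and 0.97), 2 fell, the signalling adaptors Lat (-0.48, adjusted p = 0.035) and Blnk (-0.45, adjusted p = 0.025), and Coro1a and Ms4a1 did not pass (0.60 and -0.25). At least 1 of the 2 falls was lost without P14 replicate 1 or 3 or any P23 replicate. A second, dimmer Blnk probe set went the other way and rose (1.29, adjusted p = 7.4e-06), so the direction of Blnk depended on the probe set. Of the 25 lymphocyte genes on the array 18 were too dim to test, the T cell receptor complex genes Cd3e and Cd3g among them.

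Dermal matrix genes mostly rose, with Col1a1 and Col3a1, the main fibrillar collagen genes, depending on the scaling. Of 28 collagen and collagen-processing genes 16 rose, 3 fell and 9 did not pass (median 0.57). Of 27 other matrix genes 16 rose, 2 fell and 9 did not pass (median 0.78). Lox, lysyl oxidase, which cross-links collagen, had 1064, 1399 and 1535 at P23, against 203, 171 and 269 at P14 (2.65, SE 0.19, adjusted p = 1.8e-10). Lum, the proteoglycan lumican, had 5870.2, 5759 and 6116 at P23, against 1096, 1384 and 1949 at P14 (2.04, SE 0.15, adjusted p = 3.0e-10). Every P23 array was higher for both. Serpinh1, the collagen chaperone (1.98), Col6a2 (1.72), Dpt, dermatopontin (1.92), and Thbs2, a thrombospondin (1.68), rose too. Col1a1, a chain of type I collagen, had 22347, 21920.4 and 24169.8 at P23, against 32903, 18246 and 24047 at P14 (-0.10, adjusted p = 0.65), with overlapping groups. With quantile normalization Col1a1 was higher at P23 (1.11, adjusted p = 3.24e-08) and Col3a1 changed by 1.51 in place of 0.63. With the deposited scaling the other probe sets of Col3a1 gave 1.97 and 0.65, so its size depended on the probe set too.

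Serpinf1, pigment epithelium-derived factor, an inhibitor of vessel growth, had 2946, 2868 and 2989 at P23, against 547, 428 and 490.0 at P14 (2.59, SE 0.13, adjusted p = 2.5e-13). Of 16 proteases and inhibitors 8 rose and 3 fell (median 0.39, and 5 rose without P14 replicate 2), Ctsl, cathepsin L, among those that fell (-1.27). In the IGF axis 9 of 18 rose and 2 fell (median 0.60), with 1 lower without P14 replicate 3 or P23 replicate 2: Ndn, necdin, rose (1.93), and Igf1, the ligand, fell to 1198, 1163 and 958 at P23, against 1855, 2283 and 2176 at P14 (-0.93, SE 0.13, adjusted p = 2.4e-06). The vascular genes Emcn, endomucin (1.74), and Cdh5, VE-cadherin (1.40), rose, and Apln, a vascular peptide, was the endothelial gene that fell (-0.95). Of 10 Schwann cell and nerve genes 4 rose and 2 fell (median 0.23). The myelin genes Mbp (1.84, and 0.66 at another probe set) and Pmp22 (1.71) rose, while Egr2, a factor of myelinating cells (-1.09), and Gfra3, a neurotrophic factor receptor (-0.95), fell. Of 10 erythroid genes 7 fell and 0 rose (median -0.89), led by Hbb-bh1, an embryonic globin (-2.64), Car2, carbonic anhydrase 2 (-2.24), and Slc4a1, the red cell anion exchanger (-1.53). The adult globins Hbb-b2 and Hba-a1 did not pass (-0.05 and 0.10), while quantile normalization gave Hba-a1 a rise (0.62) and Hbb-b2 a value of 0.02.

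Of 24 cytosolic ribosomal protein genes 20 fell and 2 rose (median -0.85), and this fall depended on the scaling. Rpl41 had 23079, 22368 and 23706 at P23, against 73229, 59626 and 59261 at P14 (-1.47). Rplp0 had 17845, 17773 and 18884 at P23, against 46759, 39674 and 38808 at P14 (-1.20). With quantile normalization 8 of the 24 fell and 3 rose (median -0.09), and the changes were -0.06 for Rpl41, -0.01 for Rps24, -0.43 for Rpl19 and 0.05, the other direction, for Rplp0. The dependence followed brightness. Over 20 bins of tested probe sets the median change was -0.42 in the brightest bin and -0.10 in the next, and with quantile normalization 0.03 and 0.00. The brightest signal on an array was 22368 to 24170 at P23, against 59261 to 73229 at P14. Rpl41 was the brightest probe set on all 3 P14 arrays.

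**Figure D4:**
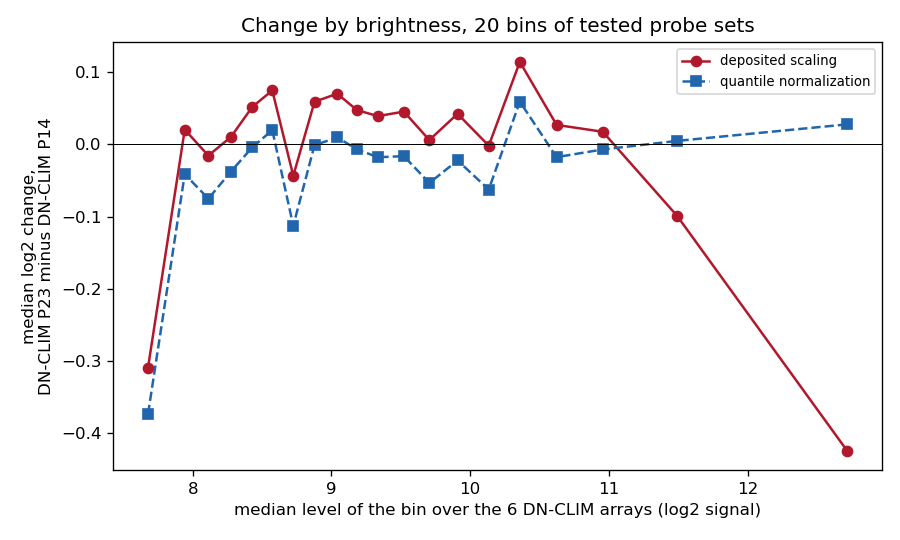
Median log2 change in DN-CLIM skin, P23 minus P14, in 20 bins of tested probe sets ordered by brightness (median log2 level of each bin on the x axis). With the deposited scaling the brightest bin lies at -0.42, and with quantile normalization at 0.03, while the dimmest bin lies at -0.31 and -0.37.

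The counts of energy, clock and immediate early genes are to be read against the 27.7% of all genes higher and 27.1% lower. Of 50 respiratory chain genes 19 rose and 11 fell (median 0.05), and of 29 glycolysis and TCA cycle genes 16 rose and 3 fell (median 0.55). Without P23 replicate 3, 1 of the 29 fell. Pfkm, the muscle form of phosphofructokinase, rose by 2.41, while Hk1, a hexokinase, fell by 1.13. Of 14 clock genes 6 rose and 5 fell (median 0.14), with the nuclear receptors Nr1d2 (2.13) and Nr1d1 (1.12) higher. The hour of sampling is not stated in the labels. Of 30 immediate early and heat shock genes 10 rose and 10 fell: Dusp1, a MAP kinase phosphatase, had 4037, 3040.2 and 3601 at P23, against 717, 537 and 732 at P14 (2.43, SE 0.17, adjusted p = 1.2e-10), Fos rose by 1.82, Klf4, a factor of the differentiating epidermis, by 1.25, and Junb fell by 1.23.

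Outside the gene lists, the largest rises included Pkia, an inhibitor of protein kinase A, with 1385, 1386 and 1384 at P23, against 22.4, 140.1 and 179.5 at P14 (4.07, SE 0.47, adjusted p = 2.7e-07). Aldh1a1, a retinaldehyde dehydrogenase, had 1809.8, 1728 and 1682 at P23, against 203, 105 and 137 at P14 (3.6, SE 0.25, adjusted p = 9.2e-11). The P14 arrays of Pkia were spread and dim, while those of Aldh1a1 were closer together. Gpx3, a glutathione peroxidase (3.07), Chpt1, an enzyme of phosphatidylcholine synthesis (3.07), Cdo1, cysteine dioxygenase (2.86), and Mstn, myostatin (2.86), were also among the 20 largest rises.

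Of 8 tested CLIM and LIM partner genes 2 rose, 1 fell and 5 did not pass (median 0.03). Ldb1 had 647, 639.7 and 665 at P23, against 902, 568 and 581 at P14 (-0.04, adjusted p = 0.84). Ldb2 had 1039, 983 and 807 at P23, against 861, 972 and 962 at P14 (0.01, adjusted p = 0.95). The groups of both overlapped, and the signs of Ldb1, Ldb2, Lmo2 and Ssbp4 each turned in some other setting. Ssbp2, a single-stranded DNA-binding protein that stabilises Ldb complexes (0.83, adjusted p = 2.9e-06), and Lmo1, a LIM-only protein (0.59, adjusted p = 0.0066), rose. Rlim, a ubiquitin ligase that degrades CLIM proteins, fell (-0.52, adjusted p = 0.038) but did not pass without any 1 of 4 arrays (P14 replicate 1 or a P23 replicate, adjusted p = 0.053 to 0.18). Rlim is X-linked, and the sexes were unevenly mixed. Lmo4, Lmo2 and Ssbp4 did not pass (0.18, 0.04 and 0.02), but Lmo2 rose at a second, dimmer probe set (0.82, adjusted p = 0.0035). The labels do not state which part of these transcripts the construct shares with the probe sets.

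The same step in WT littermates gave 3364 probe sets past the threshold (54.2%), and the WT groups did not overlap for 66%. Of the WT calls, 2815 had also passed in DN-CLIM skin, 83.5% of the DN-CLIM calls and 83.7% of the WT calls, and 2814 had the same direction in both. The hair shaft keratins had a median of -5.98 in DN-CLIM and -6.10 in WT skin, the mitosis list -1.01 and -0.92, and the muscle list 2.17 and 2.11. Other list medians lay further apart: 0.48 and 0.97 for bulge, -0.92 and -0.35 for hedgehog, and -0.80 and -1.15 for keratinocyte stress genes. The median over their genes of the DN-CLIM minus WT difference was 0.03, -0.02 and 0.38 in that order. Of 11 MHC class II genes 9 rose in DN-CLIM and 5 in WT skin. Differences between list medians were not tested. The difference between the genotypes in the P23 minus P14 change was tested for each probe set. None of 6211 passed (0%) in limma, the smallest adjusted p was 0.17, and 317 had an unadjusted p under 0.05. With array weights 20 passed, and with quantile normalization 1, Sprr1a. In simulated data the same test recovered 53% of differences of 1 on the log2 scale and 10% of those of 0.5, so differences of moderate size could have been missed.

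**Figure D5:**
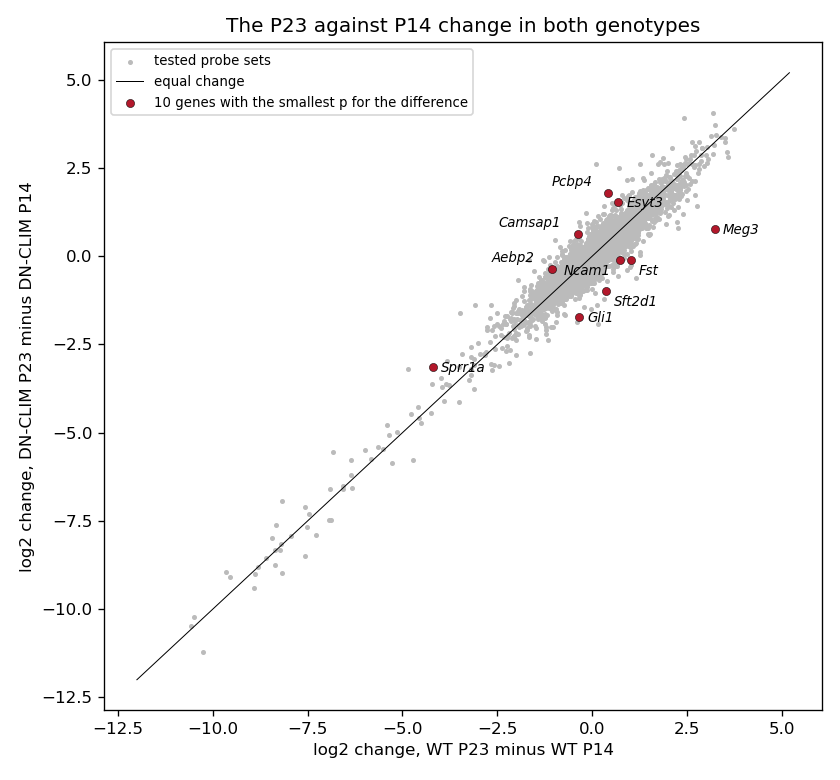
Log2 change, P23 minus P14, of each tested probe set in DN-CLIM skin (y axis) against that in WT skin (x axis), with the line of equal change. Red points are the 10 genes with the smallest p for the difference between genotypes, none of which passed after adjustment, with Meg3 at 0.76 in DN-CLIM and 3.23 in WT skin the farthest of them from it.

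The 10 genes with the smallest p for that difference are given as values. None passed in the main fit, and all of them passed with array weights. Gli1 had 108, 102 and 91.3 in DN-CLIM P23 skin, against 312, 285 and 414 in DN-CLIM P14 skin, and 259, 253 and 237 in WT P23 skin, against 216, 461 and 325 in WT P14 skin. Its change was -1.73 in DN-CLIM and -0.35 in WT skin, a difference of -1.38 (SE 0.30, adjusted p = 0.17), which passed with array weights (-1.45) and without WT P14 replicate 2 (-1.64). The DN-CLIM groups did not overlap for Gli1, and the WT groups did. Sprr1a changed by -3.13 in DN-CLIM and -4.20 in WT skin (difference 1.08, SE 0.24, adjusted p = 0.17), with WT P23 signals of 3034, 2949 and 2614, all below the 3 DN-CLIM P23 signals. Fst changed by -0.12 in DN-CLIM and 1.02 in WT skin (difference -1.13, adjusted p = 0.17). Krt16, a stress keratin outside the 10 smallest, changed by -1.39 in DN-CLIM and -3.08 in WT skin (difference 1.70, adjusted p = 0.38).

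Meg3, an imprinted noncoding RNA, had the smallest p: 2054, 1864 and 1909.9 in DN-CLIM P23 skin, against 1462, 802 and 1277 in DN-CLIM P14 skin, and 2782, 1738 and 1479.5 in WT P23 skin, against 129.6, 501 and 132 in WT P14 skin. The difference was -2.47 (SE 0.50, adjusted p = 0.17), and another Meg3 probe set gave -0.30. The WT P14 arrays were thus low at 1 of the 2 probe sets. Pcbp4, an RNA-binding protein, changed by 1.79 in DN-CLIM and 0.42 in WT skin, Esyt3, a membrane tether, by 1.53 and 0.69, and Sft2d1, a vesicle transport protein, by -0.98 and 0.36. Camsap1, a microtubule-binding protein (0.64 and -0.37), Aebp2, a Polycomb cofactor (-0.35 and -1.06), and Ncam1, an adhesion molecule (-0.11 and 0.73), complete the 10.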

How the data were processed

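Total RNA of back skin, extracted with TRIzol and an RNeasy column, was copied into biotin-labelled RNA and hybridised to Affymetrix mouse arrays, per the labels' protocols. The values in the deposited table are MAS5 signal intensities on a linear scale, computed by the authors with scaling of each array to a common 2% trimmed mean of about 500.3. The version of MAS5 is not stated, and detection calls were not used. From 12488 probe sets, 66 controls were left out. The platform annotation gave 10855 probe sets 1 gene, 396 several and 1237 none, and 10817 were matched to RefSeq by Entrez ID with 0 symbols changed.

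Signals were taken as log2, and probe sets whose mean over the 22 arrays was at or above the median (log2 7.67, a signal of 203) were tested. Most of these arrays were from P6 or P14. A gene bright only at P23 could therefore be left out more easily than one bright only at the earlier ages. Means of the 6 groups were fitted on all arrays with limma 3.58.1 in R 4.3.3 with an intensity trend, and p-values were adjusted over the 6211 tested probe sets by Benjamini-Hochberg at 0.05. Each gene was read at its probe set of highest mean. Simulated data with known changes were recovered at 85% for a log2 change of 1 and 33% for 0.5. Only 100 of the 6211 simulated probe sets changed by each size, whereas 54.3% were called in the real data. The adjusted threshold was therefore stricter in the simulation, and its shares do not give the power of the real comparison. Replicate numbers in the titles did not pair the arrays. No 2 arrays were identical.

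Genes were named by selection from the 20 largest rises and falls, up to 6 members of each gene list by size of change, fixed markers, all members of lists with up to 8 tested genes and the 10 smallest p for the difference between genotypes. Gata3, Nfix, Rpa1, Pard3, Sox10, Tcf7l1, Fstl1, Itga3, Lama5, Perp, Prdm1, H2-Q10, Sprr2b, Serpinb2, Tnnt1, Tnni1, Tpm1, Mylpf, Apoe, Fabp4, Hbb-b2 and Hba-a1 lie outside that rule and were chosen after their values were seen. The gene lists and the comparison were chosen with earlier results of these data known. Promoter windows came from RefSeq on GRCm38.p6. Alternatives were quantile normalization, median centring, no filter and a stricter filter at the 75th percentile, 50 added to each signal, only the arrays compared, array weights, sex class and the replicate number as covariates, and leaving out each array.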

Additional observations from a re-analysis of the deposited data

How the results depend on the processing

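The 3372 probe sets called in DN-CLIM skin numbered 3462 with quantile normalization (48.0% of them higher, against 49.9%), 3346 with median centring (44.1% higher), 4499 without the filter, 1868 of 3106 with the stricter filter, 3392 with 50 added, 3657 with the arrays compared alone, 3843 with array weights, 3278 with sex class, and 2971 to 3079 without 1 array. The 3364 WT calls numbered 1894 with the stricter filter, 3399 with median centring (39.3% higher, median change -0.13) and 2970 to 3071 without 1 array. The difference between genotypes, with 0 calls, gave 1 with quantile normalization (Sprr1a, 1.3), 1 with the arrays compared alone (Sft2d1, -1.34), 20 with array weights and 0 to 2 without 1 array: Meg3 (-3.12) and Gli1 (-1.64) without WT P14 replicate 2, Stx2 (1.59) without DN-CLIM P14 replicate 1 and Krt25 (-1.47) without WT P23 replicate 2. Replicate numbers were shared by the groups, but deviations of same-numbered DN-CLIM arrays correlated at 0.0095, 0.017 and 0.039 only. With the replicate number as a block the counts were 3299 for DN-CLIM, 3297 for WT and 0 for the difference.

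For the 197 genes named, 2869 comparisons with an alternative gave the same direction and side of the threshold in 2783, lost the call in 48, gained it in 11 and turned direction in 27. With quantile normalization, Col1a1 was 1.11, Hbb-b2 0.017, Ldb2 -0.049, Lmo2 -0.019, Perp 0.16, Rplp0 0.054 and Ssbp4 -0.043. With median centring, Ldb2 was -0.056, Lmo2 -0.032 and Ssbp4 -0.053. With array weights, Ldb1 was 0.017 and Lmo2 -0.046. With sex class, Hbb-b2 was 0.018 and Ssbp4 -0.036. Without 1 array, the values ranged from -0.30 to 0.12 for Col1a1, -0.24 to 0.11 for Hbb-b2, -0.10 to 0.054 for Kit, -0.15 to 0.18 for Ldb1, -0.063 to 0.12 for Ldb2, -0.20 to 0.16 for Lmo2 and -0.22 to 0.16 for Ssbp4. The cause was not tested. With 3 arrays a group, small changes could have been missed, and at the dim end, where no detection calls were used, sizes of change are rough.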
